A study of Mus musculus with 2 samples.

Results

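The nephron segment genes are 33 genes that mark the working parts of the kidney tubule, measured here in RNA from mouse adrenal glands. They were taken by symbol out of 55536 annotated genes: 3 genes of the podocyte, 14 of the proximal tubule, 3 of the loop of Henle, 4 of the distal tubule, 6 of the collecting duct, and 3 that serve several segments. The series is total RNA-seq of adrenal glands from female B6CASTF1/J mice aged 4 days, with 1 group of 2 biological replicates. These mice are first-generation hybrids of a C57BL/6J and a CAST/EiJ parent, they carry no other allele or treatment in the labels, and there is no control group. The labels disagree on the animal behind replicate 2: the text on its library has the animal number of replicate 1, the text on its tissue has another, and both samples cite the same donor record.

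The nephron filters blood and then takes back what the body keeps. Podocytes form the filter, the proximal tubule reabsorbs most of the salt, sugar, phosphate, amino acids and filtered protein, the loop of Henle builds the salt gradient, and the distal tubule and collecting duct set the final salt, acid and water content of urine. The adrenal gland makes steroids in its cortex and catecholamines in its medulla; it lies beside the kidney and contains no nephron.

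The members were chosen with the ratio between these 2 libraries known, so the ratios below are a description and carry no test. Each ratio sets replicate 1 over replicate 2 on the log2 scale. It comes from the expected counts after TMM scaling (trimmed mean of M values) with 0.5 counts added, and a positive value means a higher level in replicate 1. The interval in brackets is a 95% exact conditional binomial interval of counting error; it says nothing of the spread between animals. Levels are given as TPM, the share of a gene among all transcripts after correction for gene length. In whole-gland RNA, fewer cells of a type and less RNA per cell cannot be told apart.

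Both libraries had the defining genes of the labelled gland. The 8 cortex genes had a total of 6145 TPM in replicate 1, against 6762 TPM in replicate 2, and the 6 medulla genes one of 1329 TPM in replicate 1, against 1543 TPM in replicate 2. Annotated genes received 31551632 expected counts in replicate 1 and 32628038 in replicate 2. A mean count of 20 or more was reached by 17512 genes, whose median log2 ratio was -0.01. Genes of some other tissues differed between the libraries. The 5 exocrine pancreas genes had a total of 3225 TPM in replicate 1, against 0.51 TPM in replicate 2. They were led in replicate 1 by Ctrb1 at 2127 TPM and Cela2a at 561 TPM, with Cela2a and Prss2 at 0 counts in replicate 2. The 5 liver genes had a total of 93.4 TPM in replicate 1, against 423 TPM in replicate 2, and the 5 skeletal muscle genes one of 304 TPM in replicate 1, against 1919 TPM in replicate 2. The 4 fat genes had a total of 337 TPM in replicate 1, against 356 TPM in replicate 2, and the 4 ovary genes one of 0.99 TPM in replicate 1, against 0.76 TPM in replicate 2. Whether any of these tissues has a part in the nephron values was not tested.

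The nephron segment genes together received 27633 counts in replicate 1, or 0.0876% of the annotated-gene counts (95% exact interval 0.0866 to 0.0886), and 8129 counts in replicate 2, or 0.0249% (0.0244 to 0.0255). Their TPM summed to 293 in replicate 1 and 72.75 in replicate 2. Of the 33 genes, 32 were higher in replicate 1, and Pvalb was higher in replicate 2. A mean count of at least 20 was reached by 31 genes, all but Slc7a13 and Cldn16. Of those 31, 27 were at least 2-fold higher in replicate 1, beside 3.3% of all 17512 genes. One, Pvalb, was at least 2-fold higher in replicate 2, beside 2.37% of all genes, and 3 differed by less than 2-fold. At least 4-fold higher in replicate 1 were 22 members, beside 1.71% of all genes, and at least 8-fold higher were 16, beside 0.919%. Because this contrast chose the members, nothing is read from those counts. The median ratio over all 33 was 2.93, a 7.62-fold difference, with quartiles at 1.68 and 3.34.

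**Figure D1:**
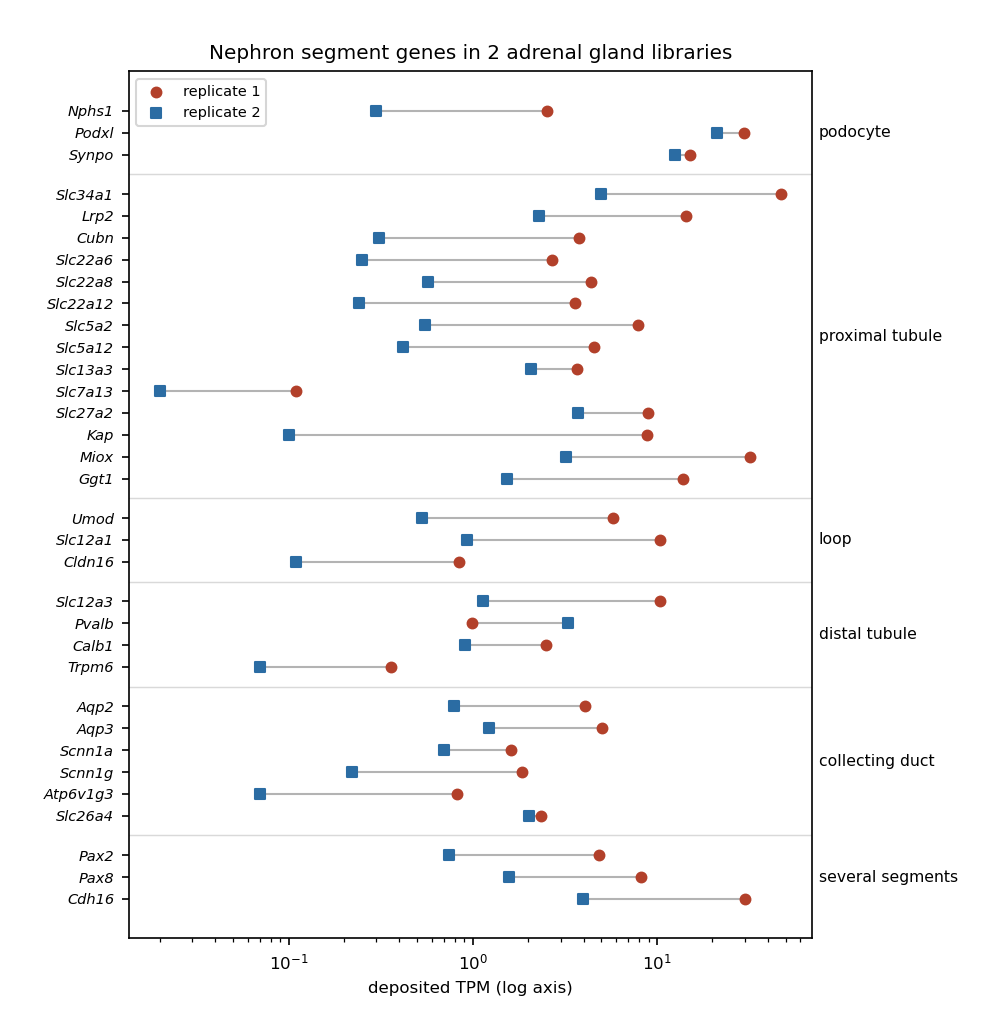
Deposited TPM of the 33 nephron segment genes on a log axis, with replicate 1 as circles and replicate 2 as squares, grouped by segment. The circle lies right of the square for each gene except Pvalb; Podxl, Synpo and Slc26a4 have the closest pairs.

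Many of the ratios lay close together. Between 2.7 and 3.8, limits set after the values were seen, lay 18 of the 33 genes, with members from the podocyte, proximal tubule, loop, distal tubule and collecting duct, and Cdh16 of the genes of several segments. Of all 33 members, 12 had an interval that included the members' median of 2.93. Within these limits some members differed beyond counting error. Slc34a1 had a ratio of 3.27 [3.11 to 3.45] and Lrp2 one of 2.83 [2.72 to 2.93], both from the proximal tubule. At a level of at least 1 TPM were 28 members in replicate 1 and 14 in replicate 2, and 13 in both. The order of levels differed between the libraries at its top: Slc34a1, Miox and Cdh16 stood highest in replicate 1, and Podxl, Synpo and Slc34a1 in replicate 2.

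**Figure D2:**
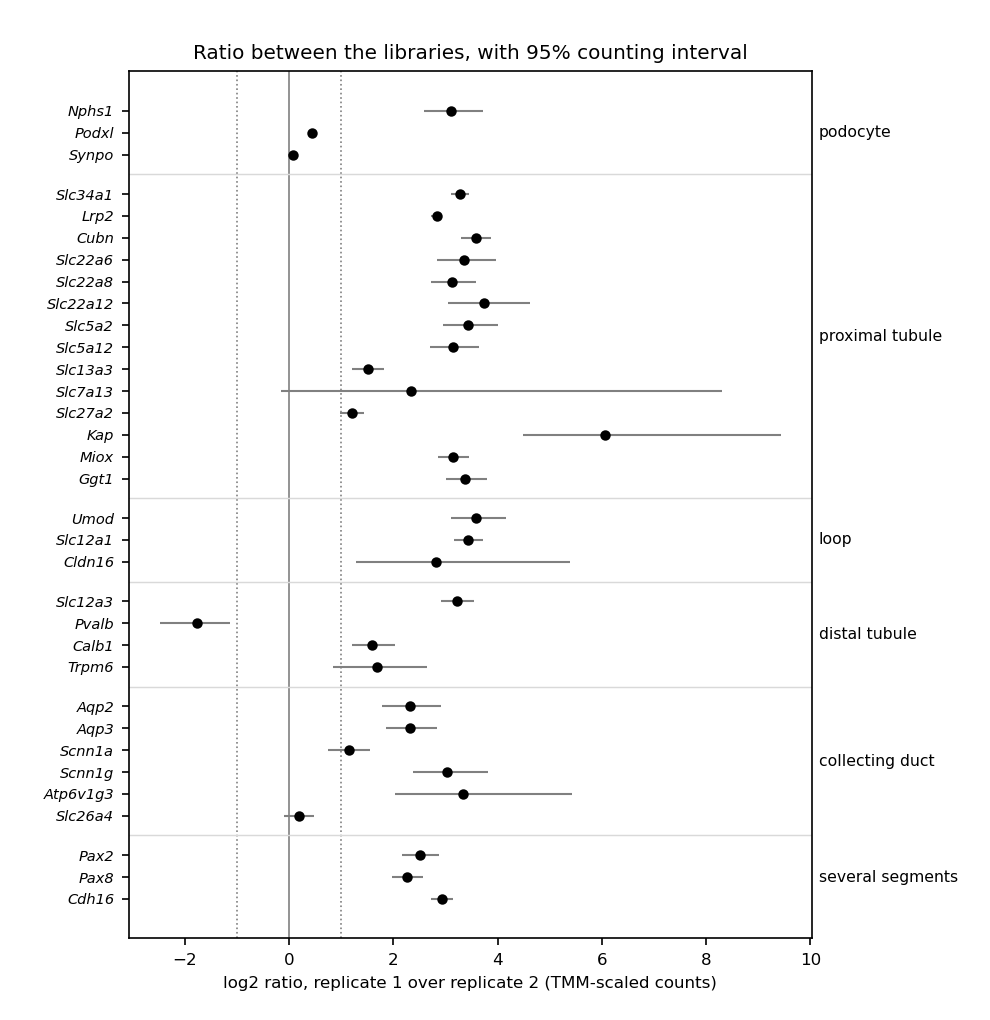
Log2 ratio of replicate 1 over replicate 2 for each gene (points) with its 95% counting interval (bars), grouped by segment; dotted lines mark a 2-fold difference in either direction. Most points lie between 2 and 4, Kap lies at 6.05, and Pvalb is the single point left of 0.

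**Figure D3:**
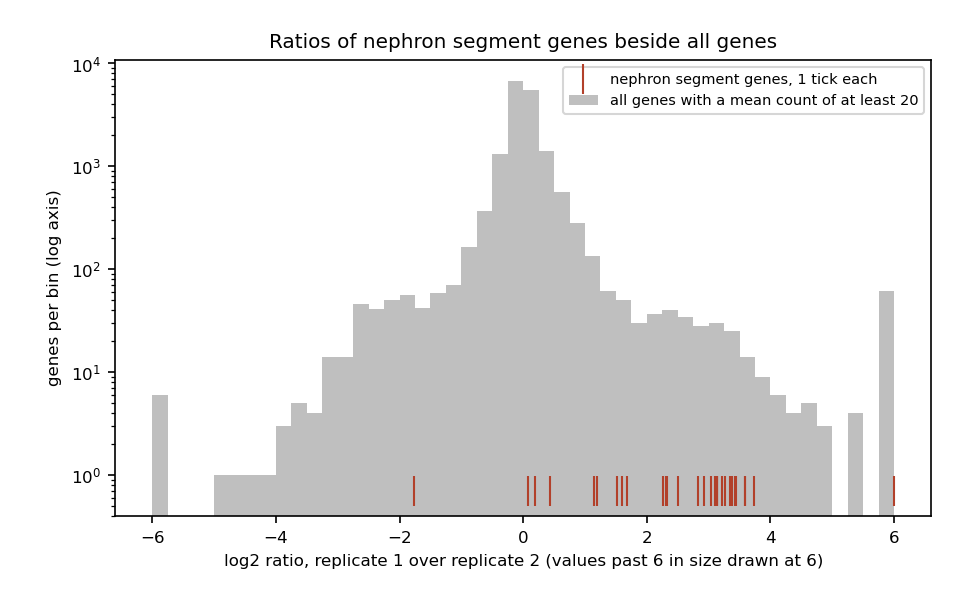
Genes per bin of log2 ratio (grey bars, log axis) for the 17512 genes that reached a mean count of 20, with 1 tick for each of the 31 nephron segment genes that reached that count. The bulk of all genes lies around -0.01, and 27 ticks lie at or right of 1.

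The podocyte genes did not share 1 ratio. Nphs1, which encodes nephrin, the protein of the slit diaphragm between podocyte foot processes (chromosome 7, 30458315 to 30487223, plus strand, mm10), had 2.53 TPM in replicate 1 and 0.30 TPM in replicate 2, from 270 and 31 counts in that order. Its ratio was 3.11 [2.59 to 3.71], or 8.61-fold. Podxl, for podocalyxin, a charged surface protein of podocytes that endothelium also makes, had 29.6 TPM in replicate 1, against 21.3 TPM in replicate 2, and a ratio of 0.44 [0.38 to 0.51]. Synpo, for synaptopodin, an actin-associated protein of podocytes and of neurons, had 15.2 TPM in replicate 1, against 12.6 TPM in replicate 2, and a ratio of 0.07 [-0.02 to 0.17]. Nphs1 was far higher in replicate 1, while Podxl and Synpo were closer and took most of the podocyte total. The 5 endothelial genes had a total of 210.0 TPM in replicate 1, against 209.7 TPM in replicate 2; their part in the Podxl value was not tested. The podocyte total was 47.3 TPM in replicate 1, against 34.2 TPM in replicate 2, with a ratio of summed counts of 0.38 [0.33 to 0.43].

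The proximal tubule genes had a total of 156 TPM in replicate 1, the highest of any segment there, against 20.3 TPM in replicate 2, where the podocyte total was higher. They had a ratio of summed counts of 2.91 [2.84 to 2.98]. All 13 members of the segment that reached a mean count of 20 were at least 2-fold higher in replicate 1. Slc34a1, the sodium-phosphate cotransporter of the brush border (chromosome 13, 55398187 to 55415592, plus strand), had 47.0 TPM in replicate 1 and 4.97 TPM in replicate 2, from 2939 and 304 counts in that order, or 9.68-fold. It was the highest member in replicate 1.

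The endocytic receptors for filtered protein, megalin and cubilin, bind ligands together at the apical membrane. Lrp2, for megalin (chromosome 2, 69424340 to 69586065, minus strand), had 14.3 TPM in replicate 1, against 2.30 TPM in replicate 2, and the most counts of any member in replicate 1, 6081, against 859 in replicate 2. Cubn, for cubilin, had 3.77 TPM in replicate 1, against 0.31 TPM in replicate 2, and a ratio of 3.58 [3.30 to 3.88]. Both partners were high in replicate 1 and low in replicate 2, with Cubn the further apart and its interval clear of that of Lrp2. Gm13270, which overlaps exons of Cubn on the opposite strand, had 31 counts in replicate 1 and 33 in replicate 2.

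The transporters of organic anions and urate were all at least 8-fold higher in replicate 1. Slc22a6 and Slc22a8 bring organic anions in from the blood side, and Slc22a12 exchanges urate at the apical side. Slc22a6 had 2.68 TPM in replicate 1 and 0.25 TPM in replicate 2, a ratio of 3.36 [2.84 to 3.96]. Slc22a8 had 4.36 TPM in replicate 1 and 0.57 TPM in replicate 2, a ratio of 3.13 [2.72 to 3.59]. Slc22a12 had 3.60 TPM in replicate 1 and 0.24 TPM in replicate 2, a ratio of 3.74 [3.05 to 4.62]. All 3 were high in replicate 1, and their intervals overlap. Slc22a8 and Slc22a6 are neighbours on chromosome 19 with 6203 bases between them. Slc22a12 overlaps exons of Nrxn2 on the opposite strand, which had 514 counts in replicate 1 and 476 in replicate 2.

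The sodium-coupled carriers of sugar and acids fell into 2 ranges. Slc5a2, which reabsorbs glucose, had 7.86 TPM in replicate 1 and 0.55 TPM in replicate 2, a 10.8-fold difference. Its opposite-strand neighbour BC017158 had 921 counts in replicate 1 and 923 in replicate 2. Slc5a12, which carries lactate, had 4.54 TPM in replicate 1 and 0.42 TPM in replicate 2, an 8.84-fold difference. Slc13a3, which carries dicarboxylates, was closer, with 3.66 TPM in replicate 1, against 2.07 TPM in replicate 2, and a ratio of 1.51 [1.21 to 1.82]. Of its TPM in replicate 2, 43.8% sat on Slc13a3-204, a transcript of 397 bases annotated as a retained intron, from 8.63 counts. That transcript had 0 counts in replicate 1, so the TPM values of Slc13a3 lie closer together than its count ratio. Slc7a13, an acidic amino acid carrier of the last stretch of the proximal tubule, had 7 counts in replicate 1 and 1 in replicate 2, too few to place: its interval ran from -0.15 to 8.31.

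The remaining proximal genes held both the smallest and the largest ratio of the segment. Miox, which starts the breakdown of myo-inositol, had 32.2 TPM in replicate 1 and 3.20 TPM in replicate 2, an 8.81-fold difference. Ggt1, the brush border enzyme that cleaves glutathione, had 13.9 TPM in replicate 1 and 1.53 TPM in replicate 2, a 10.4-fold difference. Kap, a gene first known for its control by androgen in mouse kidney (chromosome 6, 133849851 to 133853762, minus strand), had 8.81 TPM in replicate 1 and 0.10 TPM in replicate 2. These rest on 165 counts in replicate 1 and 2 in replicate 2, so its 66.4-fold difference is loosely fixed, with an interval on the log2 scale from 4.49 to 9.43. Slc27a2, which activates and imports fatty acids and is also made by liver, had 8.90 TPM in replicate 1, against 3.75 TPM in replicate 2, and the lowest ratio of the segment, 1.20 [0.97 to 1.43]. The liver genes were higher in replicate 2, as given above; their part in the Slc27a2 value was not tested.

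The sequence around RefSeq starts of the members was searched for short motifs. RefSeq promoter windows (GRCm38.p6, 250 bases before to 50 after a start) matched 25 of the 33 members. Such a start can lie inside the gene as annotated. The window of Slc34a1 begins at 55399398 and its gene at 55398187, and the window of Slc22a8 begins at 8592932 and its gene at 8591254. The table had no entry matched to Scnn1a, Calb1, Slc5a12, Synpo, Cdh16, Slc7a13, Slc5a2 and Podxl. HNF1 and HNF4 are transcription factors of the proximal tubule, and NR5A1 is the steroid factor of the adrenal cortex, whose motif ESRR proteins share. Exact matches on both strands to HNF1 (GTTAATNAT), HNF4 (CAAAGTCCA) and ESRR or NR5A1 (TCAAGGTCA) were found in 0 of the 25 members, beside 0.94% for HNF1, 0.555% for HNF4 and 0.466% for ESRR or NR5A1 of all 27025 genes. The HNF1 half-site GTTAAT, which lies inside that longer motif and was added after the first result was seen, was found on either strand in 6 of 25 members, Atp6v1g3, Miox, Slc22a6, Slc22a8, Slc34a1 and Umod, beside 8.24% of all 27025 genes. The letters TATAAA of a TATA box, searched on the gene strand and also added, were found in 6 of 25, Aqp3, Kap, Miox, Slc12a3, Slc26a4 and Slc34a1, beside 9.77% of all genes. Their first base lay between -40 and -29 from the RefSeq start in all but Slc34a1, where it lay at 17, downstream of that start. A match is a run of letters and not a bound site. The windows of 4 half-site carriers are given 5′ to 3′ on the gene's strand, because they are the phosphate carrier that leads replicate 1, the neighbouring anion carriers and the loop gene Umod. Capitals mark GTTAAT on either strand (ATTAAC on the other) and TATAAA.
Slc34a1, chr13:55399398-55399697, plus strand: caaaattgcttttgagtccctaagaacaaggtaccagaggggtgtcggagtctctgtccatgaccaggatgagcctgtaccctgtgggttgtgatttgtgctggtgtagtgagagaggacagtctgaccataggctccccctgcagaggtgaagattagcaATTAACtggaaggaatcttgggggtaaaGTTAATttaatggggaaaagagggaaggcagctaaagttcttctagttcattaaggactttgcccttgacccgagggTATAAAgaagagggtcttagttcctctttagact
Slc22a6, chr19:8617746-8618045, plus strand: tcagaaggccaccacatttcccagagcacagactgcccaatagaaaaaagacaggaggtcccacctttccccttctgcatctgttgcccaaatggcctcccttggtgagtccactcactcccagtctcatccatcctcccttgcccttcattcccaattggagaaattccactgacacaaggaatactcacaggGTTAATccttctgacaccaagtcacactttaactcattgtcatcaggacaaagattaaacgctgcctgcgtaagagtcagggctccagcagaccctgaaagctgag
Slc22a8, chr19:8592932-8593231, plus strand: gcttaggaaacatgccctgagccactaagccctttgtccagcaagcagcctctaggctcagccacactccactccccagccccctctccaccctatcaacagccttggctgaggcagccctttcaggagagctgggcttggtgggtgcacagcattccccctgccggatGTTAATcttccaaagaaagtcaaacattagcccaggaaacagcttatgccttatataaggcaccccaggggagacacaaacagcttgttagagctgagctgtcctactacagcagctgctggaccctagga
Umod, chr7:119479213-119479512, minus strand: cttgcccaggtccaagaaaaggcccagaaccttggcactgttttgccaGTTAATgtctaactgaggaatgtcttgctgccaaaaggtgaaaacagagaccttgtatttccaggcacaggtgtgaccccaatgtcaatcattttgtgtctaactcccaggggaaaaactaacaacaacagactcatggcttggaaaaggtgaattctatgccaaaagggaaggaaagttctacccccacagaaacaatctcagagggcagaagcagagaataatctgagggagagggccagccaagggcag

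The loop genes had the largest ratio of summed counts of any segment, 3.46 [3.23 to 3.72], from totals of 17.1 TPM in replicate 1 and 1.57 TPM in replicate 2. Umod, for uromodulin, the main protein of normal urine (chromosome 7, 119462711 to 119479282, minus strand), had 5.78 TPM in replicate 1 and 0.53 TPM in replicate 2, a ratio of 3.59 [3.10 to 4.17]. Slc12a1, the sodium-potassium-chloride cotransporter that loop diuretics block (chromosome 2, 125152505 to 125230002, plus strand), had 10.4 TPM in replicate 1 and 0.93 TPM in replicate 2, a ratio of 3.43 [3.16 to 3.72]. Both were high in replicate 1, with overlapping intervals. Cldn16, a tight junction protein for magnesium and calcium, had 24 counts in replicate 1 and 3 in replicate 2, below the mean count of 20, and a ratio of 2.81 [1.28 to 5.38].

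Slc12a1 is known to be spliced with 1 of several alternative cassette exons. In the annotation its coding transcripts Slc12a1-201, Slc12a1-202 and Slc12a1-203 differ in exon 5, a cassette of 96 bases in each. The 3 cassettes lie side by side on chromosome 2 and share 51 of 96 bases in all 3. They are given 5′ to 3′ from the annotated transcripts (mm10, plus strand), since the counts per transcript rest in part on telling them apart. Capitals mark positions at which the cassettes are not all the same. The transcripts also differ outside the cassette, with lengths of 4645 bases for Slc12a1-201, 4740 for Slc12a1-202 and 4642 for Slc12a1-203.
Slc12a1-201, chr2:125166123-125166218: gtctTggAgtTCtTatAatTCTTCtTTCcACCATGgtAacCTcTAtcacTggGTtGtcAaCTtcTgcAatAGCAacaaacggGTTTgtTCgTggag
Slc12a1-202, chr2:125165495-125165590: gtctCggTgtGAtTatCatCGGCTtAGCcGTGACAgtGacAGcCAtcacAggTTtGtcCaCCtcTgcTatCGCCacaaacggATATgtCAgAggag
Slc12a1-203, chr2:125166673-125166768: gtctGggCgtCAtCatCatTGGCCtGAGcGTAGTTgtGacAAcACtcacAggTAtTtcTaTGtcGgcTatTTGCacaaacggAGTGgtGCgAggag

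The cassettes agree in 66 of 96 bases between Slc12a1-202 and Slc12a1-203, in 63 between Slc12a1-201 and Slc12a1-202, and in 56 between Slc12a1-201 and Slc12a1-203. The first of 2 deposited quantifications gave Slc12a1-203 482 counts in replicate 1 and 0 in replicate 2. Slc12a1-201 received 373 counts in replicate 1 and 103 in replicate 2, and Slc12a1-202 received 239.7 in replicate 1 and 0 in replicate 2. The second quantification put Slc12a1-202 first in replicate 1, with 617 counts against 47.5 in replicate 2, and Slc12a1-201 first in replicate 2, with 299 counts in replicate 1 and 73.4 in replicate 2. The zeros of the first quantification are estimates: the deposited posterior mean count of Slc12a1-203 in replicate 2 was 14.8 with an SD of 13.0. Both quantifications led replicate 2 with Slc12a1-201 but disagreed on the leading transcript of replicate 1. The gene as a whole was 10.8-fold higher in replicate 1.

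**Figure D4:**
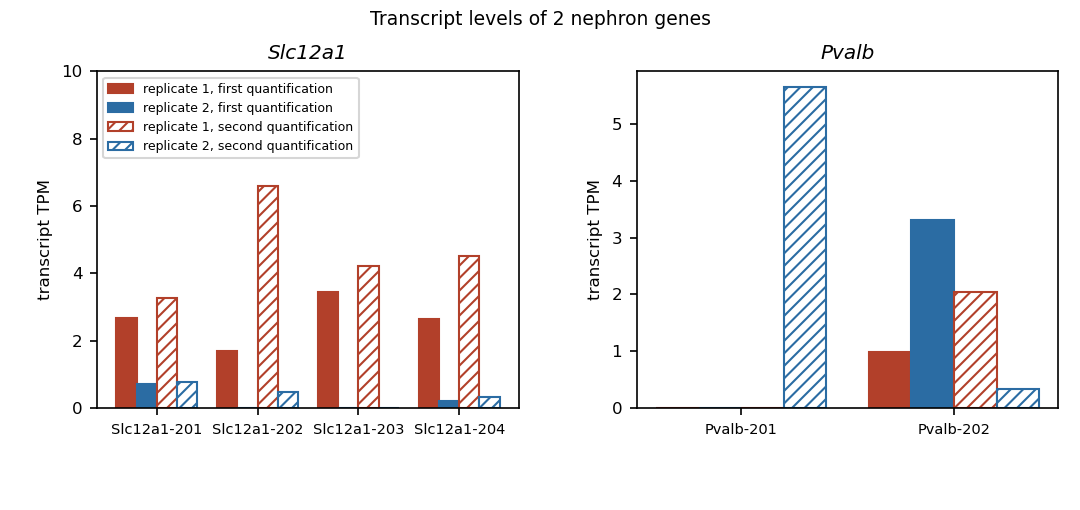
Transcript TPM of Slc12a1 (left) and Pvalb (right), with replicate 1 in red, replicate 2 in blue, the first quantification filled and the second hatched. Slc12a1-201 leads replicate 2 in both quantifications, while the reads of Pvalb in replicate 2 sit on a different transcript in each.

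The distal tubule held the members that went furthest apart in direction. Slc12a3, the thiazide-sensitive sodium-chloride cotransporter of the distal convoluted tubule (chromosome 8, 94329201 to 94366214, plus strand), had 10.3 TPM in replicate 1 and 1.14 TPM in replicate 2, a ratio of 3.22 [2.92 to 3.55]. Calb1, a calcium-binding protein of the later distal tubule and of neurons, had 2.50 TPM in replicate 1 and 0.91 TPM in replicate 2, a ratio of 1.60 [1.20 to 2.04]. Trpm6, a magnesium channel, had 0.36 TPM in replicate 1 and 0.07 TPM in replicate 2, a ratio of 1.68 [0.85 to 2.65]. These 3 were higher in replicate 1, Slc12a3 by the most.

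Pvalb was the exception. It encodes parvalbumin, a calcium buffer of the early distal convoluted tubule that fast skeletal muscle and some neurons also make (chromosome 15, 78191114 to 78206400, minus strand). It had 0.99 TPM in replicate 1 and 3.31 TPM in replicate 2, from 26 and 90 counts in that order, and a ratio of -1.77 [-2.48 to -1.14]. All 5 skeletal muscle genes were also at least 2-fold higher in replicate 2, with Acta1 at 128 TPM in replicate 1, against 839.8 TPM in replicate 2, and Mylpf at 95.7 TPM in replicate 1, against 562 TPM in replicate 2; their part in the Pvalb value was not tested. The first quantification placed all Pvalb counts on Pvalb-202 in both replicates. The second placed the 27 counts of replicate 1 on Pvalb-202 but, in replicate 2, 80.3 on Pvalb-201 and 4.67 on Pvalb-202. The gene-level direction was the same in both, with a ratio of -1.66 in the second. With Pvalb included, the distal total was 14.2 TPM in replicate 1, against 5.43 TPM in replicate 2, and the ratio of summed counts 2.12 [1.93 to 2.32].

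The collecting duct genes ranged widely, from near equal to at least 8-fold higher in replicate 1. Aqp2, the vasopressin-regulated water channel of principal cells (chromosome 15, 99579055 to 99584547, plus strand), had 4.08 TPM in replicate 1 and 0.79 TPM in replicate 2, a 4.98-fold difference. Aqp3, the water and glycerol channel on the blood side of the same cells, had 5.03 TPM in replicate 1 and 1.22 TPM in replicate 2, a 4.97-fold difference. The 2 water channels had nearly the same ratio, 2.32 for Aqp2 and 2.31 for Aqp3. The epithelial sodium channel subunits did not. Scnn1g, the gamma subunit, had 1.86 TPM in replicate 1 and 0.22 TPM in replicate 2, a ratio of 3.03 [2.38 to 3.81]. Scnn1a, the alpha subunit, which other epithelia make too, had 1.61 TPM in replicate 1 and 0.70 TPM in replicate 2, a ratio of 1.14 [0.75 to 1.56]. Both subunits were higher in replicate 1 and their intervals do not overlap.

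The intercalated cell genes were as uneven. Atp6v1g3, a proton pump subunit, had 45 counts in replicate 1 and 4 in replicate 2, and a ratio of 3.34 [2.04 to 5.43]; in the second quantification the ratio was 1.68. Slc26a4, for pendrin, a chloride-bicarbonate exchanger also of thyroid and inner ear, had 2.36 TPM in replicate 1 and 2.01 TPM in replicate 2, a ratio of 0.19 [-0.10 to 0.48]. The interval of Atp6v1g3 lay above 0 and that of Slc26a4 included 0. The segment total was 15.8 TPM in replicate 1, against 5.01 TPM in replicate 2, and the ratio of summed counts 1.42 [1.24 to 1.60].

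The genes of several segments were all at least 4-fold higher in replicate 1. Pax2, a transcription factor of the kidney lineage, had 4.85 TPM in replicate 1 and 0.74 TPM in replicate 2, a ratio of 2.51 [2.16 to 2.88]. Pax8, its relative, which thyroid also makes, had 8.19 TPM in replicate 1 and 1.57 TPM in replicate 2, a ratio of 2.26 [1.97 to 2.56]. Cdh16, a cadherin of tubule epithelium (chromosome 8, 104601911 to 104624396, minus strand), had 29.9 TPM in replicate 1 and 3.97 TPM in replicate 2, a ratio of 2.93 [2.73 to 3.14]. All 3 were high in replicate 1, Cdh16 by the most.

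By point values, the 2-fold limit, 1 on the log2 scale, fell in a gap of the ratios. Next past it lay Scnn1a at 1.14 [0.75 to 1.56] and Slc27a2 at 1.20 [0.97 to 1.43]. Short of it lay Podxl at 0.44, Slc26a4 at 0.19 and Synpo at 0.07. The intervals of Scnn1a, Slc27a2 and Trpm6 [0.85 to 2.65] reach below 1, so counting error spans the limit for them. In the second quantification Scnn1a had a ratio of 1.04. The make-up of the members' summed level differed between the libraries. Podocyte genes made 16.2% of the members' TPM in replicate 1 and 47.0% in replicate 2. Proximal tubule genes made 53.1% in replicate 1 and 27.9% in replicate 2, and loop genes 5.82% in replicate 1 and 2.16% in replicate 2.

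Isoform use could be compared for the 31 members past the count minimum, although it comes from the same reads. Of these, 4 have 1 annotated transcript, so the comparison is over the other 27. The same transcript led in both replicates for 22 of 27 in the first quantification and for 19 of 27 in the second, and for 17 in all 4 tables. The count minimum is a mean over both replicates, so some of the 27 passed it through replicate 1 alone. Kap had 2 counts in replicate 2, too few to place a leading transcript there. Trpm6 had 15 counts in replicate 2 and Slc22a12 had 16, so their leading transcript there is loosely fixed. In replicate 1, 32 of the 33 members were led by a protein-coding transcript.

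Further genes of the same structures, 74 in all and none of them a member, were chosen with earlier results of these data known. A mean count of 20 was reached by 69 of them, of which 49 were at least 2-fold higher in replicate 1, 0 in replicate 2, and 20 differed by less than 2-fold. Over all 17512 genes the shares were 3.3% for replicate 1 and 2.37% for replicate 2, and nothing is read from them, since the lists were not chosen independently of this contrast. By structure, at least 2-fold higher in replicate 1 were 3 of 7 podocyte genes, 17 of 22 of the proximal tubule, 7 of 9 of the loop, 7 of 9 of the distal tubule, 10 of 11 of the collecting duct and 5 of 11 of the nephron progenitor.

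**Figure D5:**
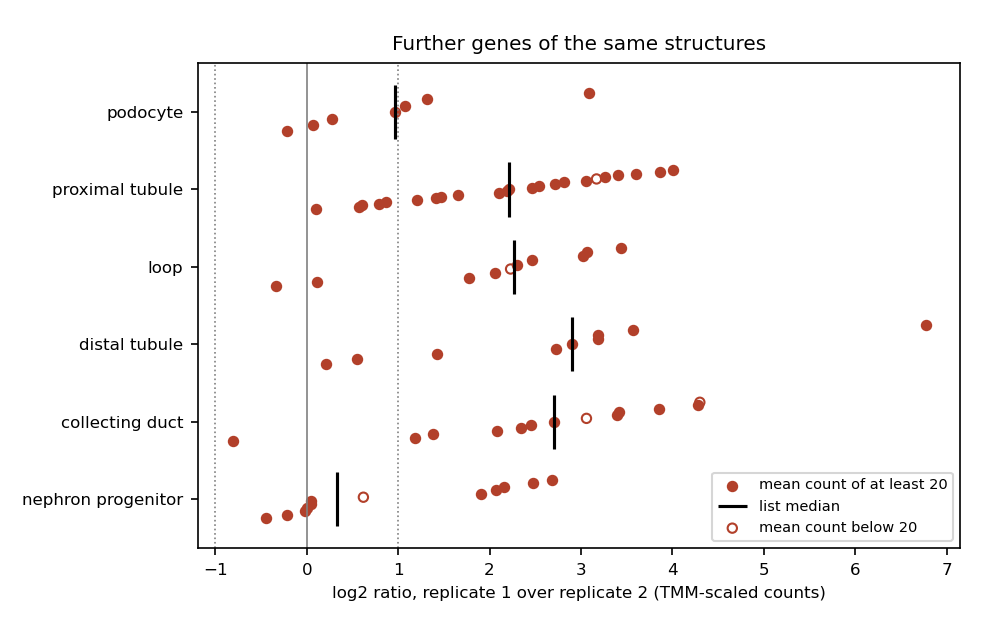
Log2 ratio of replicate 1 over replicate 2 for 74 further nephron genes, 1 point each, in 6 lists; filled points reached a mean count of 20, open points did not, and black lines are list medians. The 4 tubule lists have medians between 2.21 and 2.90, while the nephron progenitor list splits into genes near 0 and genes near 2.

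Among further podocyte genes, Npnt, for the matrix protein nephronectin, had 24.9 TPM in replicate 1 and 12.1 TPM in replicate 2. Wt1, a transcription factor of podocytes that the adrenal capsule and gonad also use, had 12.0 TPM in replicate 1 and 6.17 TPM in replicate 2. Npnt was at least 2-fold higher in replicate 1 and Wt1, with a ratio of 0.97, was not. Plce1, a phospholipase of podocytes and other cells, was higher in replicate 2, with 4.26 TPM in replicate 1 and 4.75 TPM in replicate 2.

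In the further proximal list, Slc7a8, a neutral amino acid carrier of many tissues, had 23.8 TPM in replicate 1 and 21.5 TPM in replicate 2, a ratio of 0.10. Gatm, which starts creatine synthesis in kidney and pancreas, had 29.6 TPM in replicate 1 and 10.1 TPM in replicate 2. Fbp1, a gluconeogenic enzyme of kidney and liver, had 20.1 TPM in replicate 1 and 9.74 TPM in replicate 2. Gatm and Fbp1 were at least 2-fold higher in replicate 1, and Slc7a8 was near equal. The pancreas genes were also higher in replicate 1 and the liver genes in replicate 2, and their part in these values was not tested.

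In the loop list, Ptger3, a prostaglandin receptor, had 5.32 TPM in replicate 1 and 4.80 TPM in replicate 2. Ppp1r1a, a phosphatase inhibitor, was higher in replicate 2, with 4.91 TPM in replicate 1 and 6.19 TPM in replicate 2. Both differed by less than 2-fold.

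In the distal list, Tmem52b, a transmembrane protein, had 11.1 TPM in replicate 1 and 1.26 TPM in replicate 2, a ratio of 3.19 beside the 3.22 of Slc12a3. Slc8a1, the sodium-calcium exchanger of distal tubule and of heart, had 17.9 TPM in replicate 1 and 15.6 TPM in replicate 2. Klk1, a kallikrein of kidney, pancreas and salivary gland, had 14.7 TPM in replicate 1, against 0.14 TPM in replicate 2, with 3 counts in replicate 2 and a ratio of 6.77 [5.44 to 9.28]. The ratio of Klk1 was above the 6.05 of Kap, with overlapping intervals. The 3 pancreas genes with counts in both replicates had ratios from 4.96 (Pnlip) to 12.94 (Ctrb1), and their part in the Klk1 value was not tested.

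In the collecting duct list, Tfcp2l1, a transcription factor of the duct, had 8.65 TPM in replicate 1 and 1.14 TPM in replicate 2. Hsd11b2, which inactivates glucocorticoid in principal cells, had 5.35 TPM in replicate 1 and 1.98 TPM in replicate 2. Rhcg, an ammonia channel, had 4.57 TPM in replicate 1 and 1.37 TPM in replicate 2. These were higher in replicate 1 by at least 2-fold, unlike Aqp4, a water channel of the duct, brain and skeletal muscle, which had 0.76 TPM in replicate 1, against 1.54 TPM in replicate 2. The skeletal muscle genes were higher in replicate 2 too, and their part in the Aqp4 value was not tested.

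The nephron progenitor list divided. Eya1, a transcription cofactor of kidney and other developing organs, had 8.82 TPM in replicate 1 and 7.34 TPM in replicate 2, a ratio of 0.05. Osr1, a factor of intermediate mesoderm, was higher in replicate 2, with 3.57 TPM in replicate 1 and 4.73 TPM in replicate 2. Both differed by less than 2-fold. Cited1, with a ratio of -0.02, and Crym, with -0.22, were also on the side of replicate 2, both with intervals that include 0. Six2, the defining factor of the progenitor, named here after its values were seen, had 11 counts in replicate 1 and 7 in replicate 2, too few to place.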

How the data were processed

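Total RNA-seq of 2 adrenal gland samples, labelled as biological replicates from female mice, was used; whether they come from 2 animals is unclear from the labels. Per the labels, 300 ng of RNA went into each stranded library, which was reduced in ribosomal RNA and held ERCC spike-ins. The authors deposited expected counts and TPM per gene and transcript (assembly mm10, annotation M21, per the authors' notes), and a second transcript table of estimated counts and TPM, summed here to genes. Column names are those of RSEM and kallisto, with aligner and quantifier otherwise not given in the sources used here.

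Counts totalled 31838341 in replicate 1 and 32931868 in replicate 2, of which spike-ins took 286694 and 303828. Rows that are no annotated gene, 0.901% in replicate 1 and 0.923% in replicate 2, stayed out. A count of 0 (3 counts as the floor) allows a share of 9.51e-06% in replicate 1 and 9.19e-06% in replicate 2. The labels name no molecular identifiers, so reads may repeat a molecule and the intervals and floors hold counting error alone.

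Log2 ratios used TMM factors of 1.016 and 0.9847 (edgeR 4.0.16), a prior of 0.5 and, for counts of genes, a mean count of 20. With 1 group of 2 samples no test between conditions could be made. The members and lists were chosen with earlier results of these data known. All members were named; of each further list, the 3 with the highest mean TPM and those past the count minimum that were higher in replicate 2; of each list of another tissue, the sum and the 2 highest, these printed where a result turns on them. Some genes of the further lists that this rule names are not reported here by name. The remaining tools were R 4.3.3, DESeq2 1.42.0, Python 3.11.15, matplotlib 3.10.9, scipy 1.17.1, pandas 2.3.3 and numpy 2.4.6. Interval code was tested on simulated data. Alternatives covered scaling, quantification, count minimum, fold rule and prior.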

Additional observations from a re-analysis of the deposited data

How the results depend on the processing

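No sign of a single member's ratio turned: all 132 ratios under DESeq2 size factors, spike-in scaling, library totals or the second quantification kept their direction, and 130 stayed within the counting interval. The exceptions were Podxl, at 0.52 by spike-ins, and Atp6v1g3, at 1.68 in the second quantification. The median ratio of members past the count minimum was 3.03, and became 3.11 by spike-ins, 3.07 by library total, 2.93 in the second quantification, 2.93 with no minimum, 3.11 with a minimum of 100 and 2.94 with a prior of 2. With a minimum of 100, members at least 2-fold higher in replicate 2 numbered 0 instead of 1 and further nephron genes at least 2-fold higher in replicate 1 numbered 29 instead of 49, because fewer genes were counted. Spike-in scaling gave summed-count ratios of 0.46 for podocyte genes (0.38 by TMM) and 2.99 for proximal genes (2.91 by TMM). With members at least 2-fold higher in replicate 1 alone, a choice made after seeing the data, the ratio was 3.11 for podocyte, 2.69 for distal and 2.12 for collecting duct genes, since it drops the near-equal or opposite members. Summed TPM, as the mean of both replicates, was 66.28 for podocyte genes in the second quantification (40.75 in the first), 171.8 for proximal (87.99), 17.04 for loop (9.315), 18.95 for distal (9.815), 19.26 for collecting duct (10.38) and 50.29 for several segments (24.62), so every sum was over 1.5 times as high; the cause was not tested. The rise was not particular to the members: each of the 8 cortex genes also had a higher TPM in the second quantification, in both replicates. In replicate 1, Star had 1663 TPM in the second quantification and 799 TPM in the first. Leaving out 1 replicate gave 34.18 to 47.33 TPM for podocyte, 20.28 to 155.7 for proximal, 1.57 to 17.06 for loop, 5.43 to 14.2 for distal, 5.01 to 15.76 for collecting duct genes and 6.28 to 42.97 for genes of several segments. No paired analysis was possible because there is 1 group. A ratio between the replicates has no value without one of them. With 2 libraries, animal and library preparation cannot be told apart, and members under about 50 counts have wide intervals.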
